A study of Mus musculus with 170 samples.

Results

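The rows of the expression table that carry the name of a microRNA gene are described here, 28 of 40549 rows. Of 1006 rows named Mir and a digit, 6 name host transcripts (symbols ending in hg) and were set aside, which left 1000. Among these, 717 were at 0 in every cell, 255 were above 0 in 1 to 10 cells, and 28 were above 0 in more than 10 of the 143 cells. These 28 rows are called the members. They were selected on measured values over both genotypes together, so a row seen almost only in 1 genotype could enter through that genotype alone, and counts over the members are descriptions.

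The cells were picked from the ventricular part of the heart of E9.5 C57BL/6 mouse embryos and profiled by Smart-seq2, a full-length method that primes on poly(A) tails. The knockout (cKO) embryos were Mesp1Cre/+; Dgcr8 loxP/loxP; Rosa26 mT/mG/+. The control embryos were Dgcr8 loxP/loxP; Rosa26 mT/mG/+ without Cre and are labelled wild type. All embryos of both genotypes thus carried floxed Dgcr8 alleles and the membrane reporter, and Cre driven from the Mesp1 locus acted in progenitors of the heart and vessels. Cells of the cKO hearts whose reporter had not recombined were removed by the authors, whereas control cells had no such mark of lineage. The table holds 74 control cells (35 in batch 1, 39 in batch 2) and 69 cKO cells (35 and 34). No embryo or litter is named, so each genotype is 1 sample, cells are not replicates, and no comparison between the genotypes was tested. Depth per cell is unknown, because TPM (abundance per transcript length, scaled to the same total in every cell) keeps no read count. Intervals below are exact Clopper-Pearson 95% intervals. The limit that a count of 0 allows is given separately, as 3 cells of the total. Both cover counting error only.

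A microRNA gene is first transcribed as a long capped and polyadenylated primary transcript. In the nucleus, the microprocessor, made of the nuclease Drosha and its RNA-binding partner Dgcr8, cuts out the hairpin, and Dicer then trims it in the cytoplasm to the mature strand loaded into Argonaute. The mature strand recognises its targets mainly through its seed. A library primed on poly(A) tails does not capture mature microRNAs or cut hairpins as such. A read on a member can come from an uncut primary transcript, from an intron of the host gene, or from another polyadenylated RNA over the same bases, and these sources cannot be told apart in the table.

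The mature sequences of the members that the results turn on are shown so that the families can be seen, with the seed (bases 2 to 8) in capitals. Mature sequences were matched by gene symbol to RefSeq (GRCm38.p6) for 24 of 28 members, 35 sequences in all. Mir133a-1, Mir133a-2, Mir1b and Mir3470a were not matched. The first set belongs to the X-linked cluster whose rows are described first.
miR-322-5p: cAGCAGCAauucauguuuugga
miR-503-5p: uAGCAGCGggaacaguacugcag
miR-351-5p: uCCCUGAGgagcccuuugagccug
Bases 2 to 7 were the same in miR-322-5p and miR-503-5p, and base 8 differed between them. miR-351-5p had a different seed. The next set belongs to the imprinted loci on chromosomes 2 and 12, and no seed in it was shared.
miR-296-5p: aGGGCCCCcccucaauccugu
miR-296-3p: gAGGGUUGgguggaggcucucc
miR-298-5p: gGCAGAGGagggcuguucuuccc
miR-376b-3p: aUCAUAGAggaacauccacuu
A pair from chromosome 2 is shown because both rows were seen in the same cells and carry the same seed.
miR-181a-5p: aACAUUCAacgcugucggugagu
miR-181b-5p: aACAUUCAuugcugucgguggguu
The last set holds members seen in fewer cKO than control cells in both batches.
miR-1931: aUGCAAGGgcuggugcgauggc
miR-3068-5p: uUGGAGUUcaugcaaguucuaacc
miR-3091-5p: cAUGGGUCugguugggcccgc

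Over all 28 members, 9 had a mean log2(TPM + 1) at least 1 unit higher in cKO cells (Mir322, Mir351, Mir503, Mir763, Mir296, Mir298, Mir133a-2, Mir1b and Mir376b), which is 32.1%. Among all 16659 rows detected in more than 10 cells, 6.02% were that much higher. No member was at least 1 unit lower, against 5.92% of all rows. The median difference of the members was 0.33, and that of all rows was −0.03. The difference was above 0 in both batches for 14 members, below 0 in both for 5, and of opposite sign for 9. These counts by batch have no background over all rows. The 217 rows annotated as microRNA genes under other names, most of them numbered Gm genes, were of similar length (median 97 bases, members 92). Of these, 4.61% were at least 1 unit higher in cKO cells and their median difference was −0.01. Among cardiomyocyte-like cells (defined below) the values were 7.83% and 0.14.

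**Figure D1:**
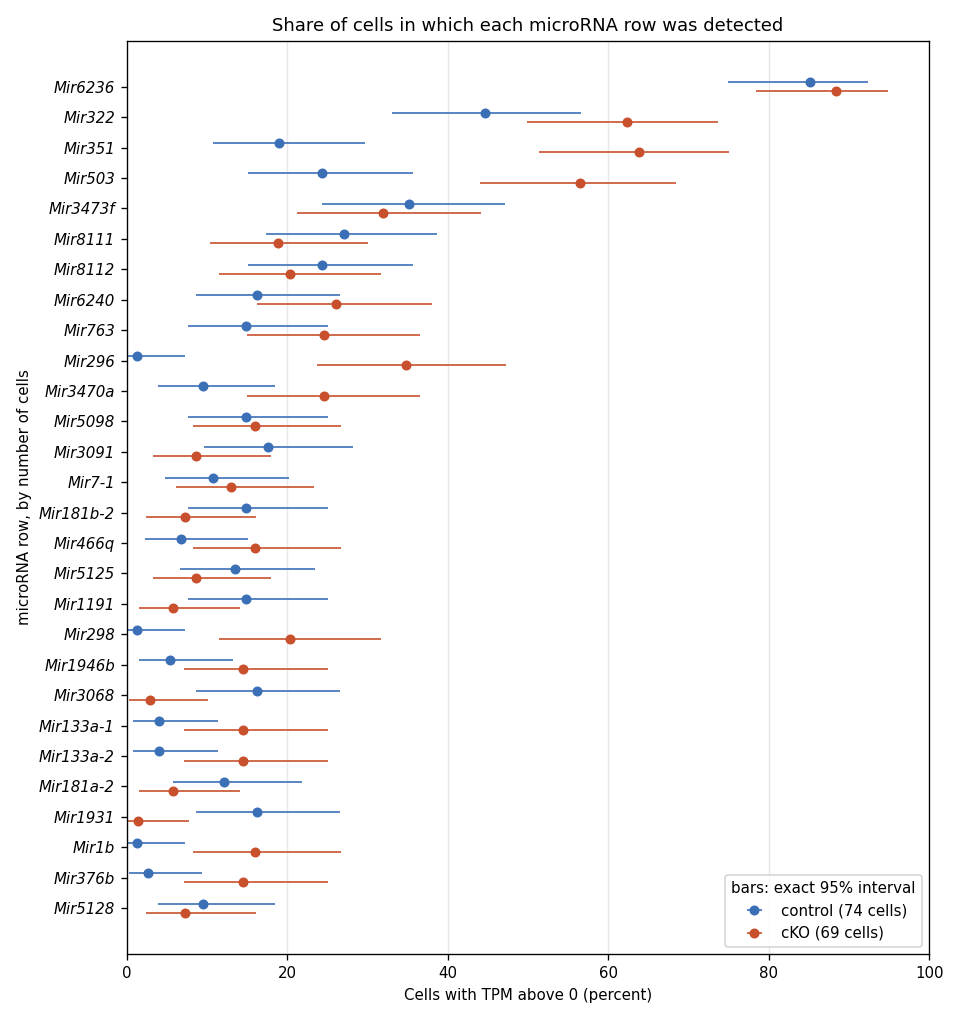
Share of cells with TPM above 0 (x axis, percent) for each of the 28 microRNA rows (y axis, ordered by number of cells), in 74 control and 69 cKO cells, with exact 95% intervals. Mir6236 was detected in over 80% of cells of both genotypes. The shares of Mir351, Mir503, Mir296, Mir298 and Mir1b lay higher in cKO cells, and that of Mir1931 lower, with intervals that did not overlap. Of these rows, only Mir351 and Mir296 also had intervals apart among cardiomyocyte-like cells. The share of all rows with intervals apart was not counted.

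The genotypes also differed in the make-up of the cells. Clustering on 55 marker genes gave a cardiomyocyte-like (CM-like) class with all 15 of its markers, of 28 control cells (19 in batch 1, 9 in batch 2) and 68 cKO cells (34 and 34). The other control cells were 21 endothelial-like, 5 erythroid-like, 13 in an unnamed cluster of epicardial and mesenchymal markers, and 7 in an unnamed cluster led by mitochondrial transcripts, which also held 1 cKO cell. A difference over all cells therefore compares a mixture with nearly pure CM-like cells, and the members' differences are also given for CM-like cells alone. Among CM-like cells, 8 members were at least 1 unit higher in cKO cells (5.61% of all rows) and 1 was at least 1 unit lower, Mir3068 (6.35% of all rows). The 8 were those named above without Mir763. The batches differed among CM-like cells. In batch 1, 9 members were at least 1 unit higher and 1 lower, with a median difference of 0.52 (all rows 0.12). In batch 2, with 9 control cells, 7 were higher and 6 lower, and the median was −0.09 (all rows −0.20). Higher and lower members were thus nearly equal in number in batch 2. The shares of all rows past 1 unit were not counted by batch, so these counts stand without a background. A row at 0 in a cell may have been missed, so its absence is not shown.

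Sex-linked transcripts differed along with the genotype. Xist, made from the inactive X chromosome, was at 1 TPM or more in 64 of 69 cKO and 3 of 74 control cells. Ddx3y, a Y-linked gene, was at 1 TPM or more in 49 control and 0 cKO cells, a count of 0 that allows up to 4.35% of cKO cells. Genotype and the sex of the embryos cannot be told apart in these cells. Dgcr8 itself was detected in 41 control and 33 cKO cells, and its mean log2(TPM + 1) was lower by 0.21 in cKO cells over all cells and by 0.80 among CM-like cells. Over all cells the difference was 0.02 in batch 1 and −0.50 in batch 2, and among CM-like cells −0.27 and −1.19. The row sums reads over the whole transcript and does not isolate the deleted part.

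On the mean log2(TPM + 1), the largest and the next largest difference, those of Mir351 and Mir503, lay in 1 cluster on the X chromosome. On the log2 ratio of mean TPM, Mir296 (8.27), Mir133a-2 (6.39), Mir298 (5.95), Mir1b (5.81) and Mir376b (4.41) stood above all 3 rows of this cluster (3.68, 3.16 and 2.07). Mir322, Mir503 and Mir351 lie on the minus strand within about 1 kb (GRCm38, Mir351 starting at X:53053255 and Mir322 ending at X:53054349), outside annotated genes. miR-322 and miR-503 belong to the extended miR-15/16 family, known for repressing cell cycle genes, and miR-351 is related by its seed to miR-125. Mir351 was detected in 14 of 74 control cells (18.9%, interval 10.7 to 29.7), 6 in batch 1 and 8 in batch 2. In cKO cells it was detected in 44 of 69 (63.8%, interval 51.3 to 75), 24 and 20 by batch. Where detected, its TPM ranged from 14.4 to 1509 in control cells (median 67.2) and from 15 to 3348 in cKO cells (median 536). Its values overlapped between the genotypes, and the cKO cells were both more often positive and higher when positive. Control cells averaged a log2(TPM + 1) of 1.21 ± 2.65 and cKO cells one of 5.70 ± 4.53 (± SD over the cells of the genotype, 74 and 69 cells, here and below). The difference of 4.49 was 5.22 in batch 1, 3.77 in batch 2 and 4.68 among CM-like cells.

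Mir503 was detected in 18 control cells (24.3%, interval 15.1 to 35.7) and 39 cKO cells (56.5%, interval 44 to 68.4). The batches differed, with 16 of 35 control cells in batch 1 but 2 of 39 in batch 2, against 26 of 35 and 13 of 34 cKO cells. Its TPM where detected had a median of 48.7 in control and 891 in cKO cells, and reached 7165 and 126523. The mean was 1.73 ± 3.43 in control and 5.22 ± 5.00 in cKO cells, a difference of 3.49 that was 3.78 in batch 1, 3.02 in batch 2 and 2.78 among CM-like cells.

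Mir322 was the most frequent of the 3 rows in control cells, with 33 of 74 positive (44.6%, interval 33 to 56.6), against 43 of 69 cKO cells (62.3%, interval 49.8 to 73.7). Its TPM where detected ran from 8.93 to 8324 in control cells (median 238) and from 14.7 to 53982 in cKO cells (median 793). The mean was 3.33 ± 4.23 in control and 5.72 ± 4.93 in cKO cells, and the difference of 2.39 was within either SD. It was 3.37 in batch 1 and 1.40 in batch 2. Among CM-like cells of batch 2, where only 9 control cells were available, it was −0.65, against 3.71 in batch 1. The direction of Mir322 thus did not hold within batch 2 for CM-like cells, whereas that of Mir351 (2.94) and of Mir503 (3.54) did.

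**Figure D2:**
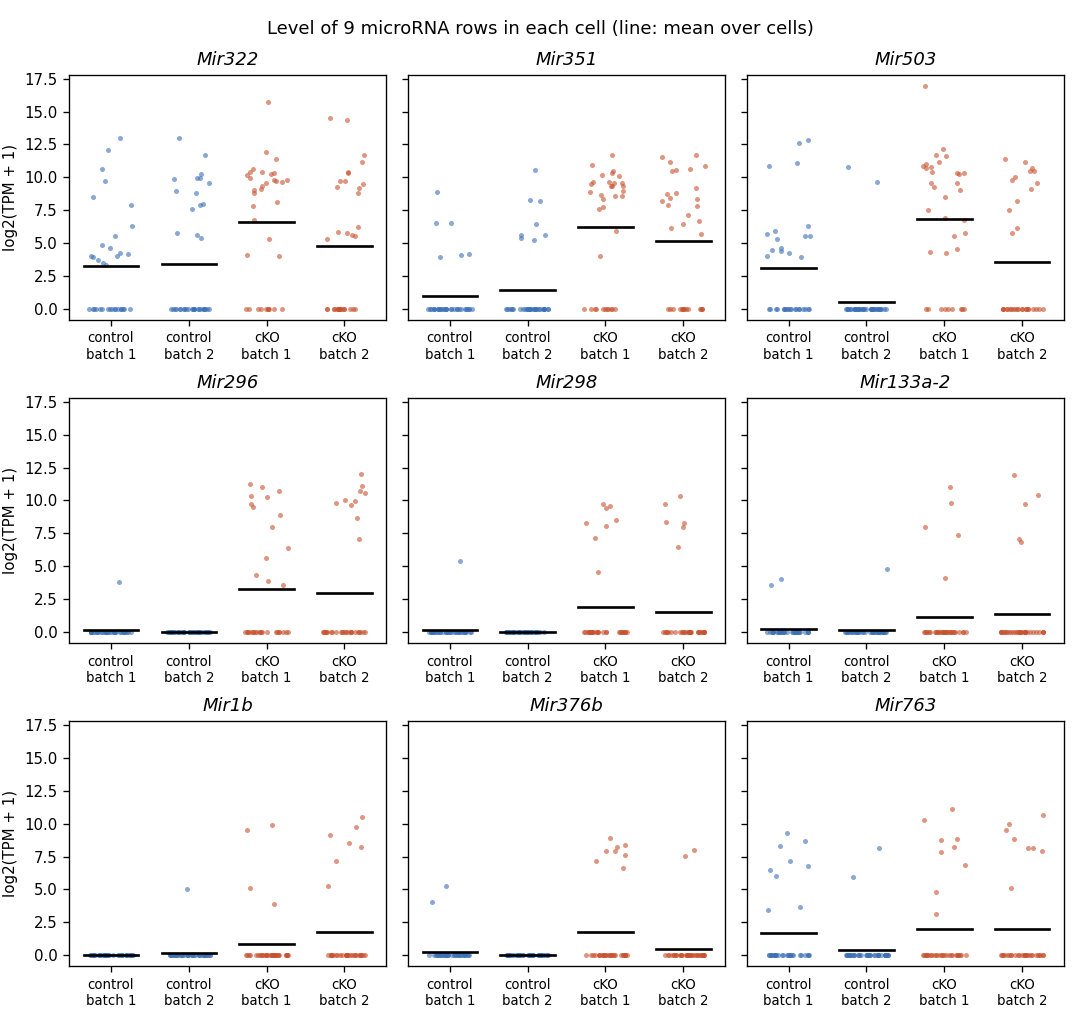
Level of 9 microRNA rows in each cell, as log2(TPM + 1) (y axis), by genotype and batch (x axis), with the mean over cells as a black line. Each point is 1 cell, most points sit at 0, and for Mir296 and Mir298 a single control cell of batch 1 was above 0.

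At least 1 of the 3 rows was detected in 41 control cells (55.4%, interval 43.4 to 67) and 53 cKO cells (76.8%, interval 65.1 to 86.1). All 3 were detected in 3 control (4.05%) and 30 cKO cells (43.5%). Among CM-like cells, all 3 were seen in 2 of 28 control and 30 of 68 cKO cells. Cells with the whole cluster were thus rare among control cells. Mir322 and Mir351 shared 10 of the 14 Mir351-positive control cells and 36 of the 44 such cKO cells. Mir351 and Mir503 shared 4 control and 33 cKO cells. Because the rows lie close together, their detections in a cell may not be independent.

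The noncoding row C430049B03Rik lies upstream on the same strand, its 5' end at −2841 bases relative to that of Mir322. It was detected in 64 control and 66 cKO cells, and its mean log2(TPM + 1) was 4.55 in control and 7.12 in cKO cells, a difference of 2.57 (3.29 in batch 1, 1.94 in batch 2, 2.37 among CM-like cells). Among CM-like cells it was 3.19 in batch 1 and 0.47 in batch 2. All 58 cells positive for Mir351 were positive for C430049B03Rik, as were 55 of 57 for Mir503 and 72 of 76 for Mir322. This row was detected in 130 of 143 cells in all, so most cells without a microRNA row carried it as well. Downstream, the noncoding row Gm28730 was detected in 11 control and 22 cKO cells. Further downstream the rows were rare, with Mir450b and Mir450-1 in 1 control and 3 cKO cells each, Mir450-2 in 3 cKO cells alone, and Mir542 at 0 in every cell. Plac1, a protein-coding gene further along, was lower by 1.86 in cKO cells and by 1.13 among CM-like cells.

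**Figure D3:**
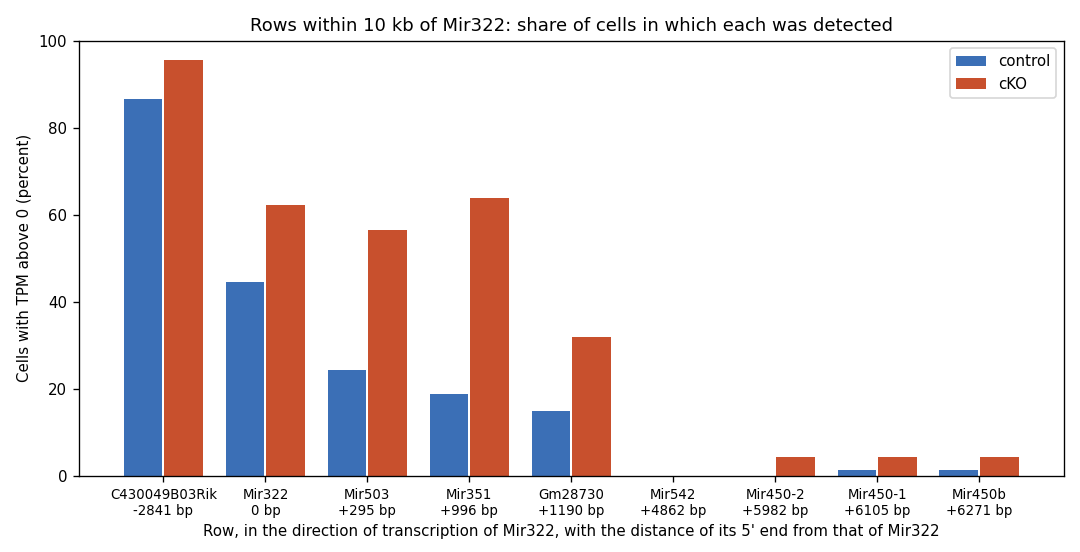
Share of cells with TPM above 0 (y axis, percent) for the rows within 10 kb of Mir322 (x axis, in the direction of transcription, with the distance of each 5' end from that of Mir322 in bases), in control and cKO cells. The shares were 86.5% and 95.7% at C430049B03Rik, 0 at Mir542 and at most 4.35% at the 3 rows beyond it, and in cKO cells Mir351 (63.8%) stood above Mir503 (56.5%).

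Because the cluster is X-linked, the sex-linked transcripts bear on it. Among the 5 cKO cells with Xist below 1 TPM, Mir322 was detected in 2, Mir351 in 3 and Mir503 in 3. In the 3 control cells with Xist at 1 TPM or more, none of these rows was detected. Both sets are too small to compare. Over the 630 X-linked rows detected in more than 10 cells, 5.56% were at least 1 unit higher in cKO cells and the median difference was −0.02. Whether the sex of the embryos contributed to the levels of the 3 rows was not tested.

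A single cKO cell stood apart. In it Mir503 took 12.7% of all TPM and Mir322 took 5.40%, and the members together took 18.2%. It was a CM-like cell of batch 1 with 11044 detected genes. Without it the differences of Mir503, Mir322 and Mir351 were 3.32, 2.25 and 4.44. On the log2 ratio of mean TPM, where single high cells weigh most, the value of Mir503 was 3.16 with this cell and 1.19 without it.

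Mir296 and Mir298 lie on the minus strand of chromosome 2 (GRCm38, from 2:174267047 to 2:174267585) in the imprinted Gnas domain, where the antisense transcript Nespas is made from the paternal allele. miR-296 is known for its role in blood vessel growth. Mir296 was detected in 1 of 74 control cells (1.35%, interval 0.0342 to 7.30) and in 24 of 69 cKO cells (34.8%, interval 23.7 to 47.2), 14 in batch 1 and 10 in batch 2. The control cell had 12.8 TPM, and the cKO cells ran from 10.8 to 4159 TPM with a median of 855. The single control value lay at the low end of the cKO values. The mean was 0.05 ± 0.44 in control and 3.09 ± 4.49 in cKO cells, and the difference of 3.04 was 3.13 in batch 1, 2.93 in batch 2 and 2.95 among CM-like cells.

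Mir298 was likewise detected in 1 control cell, at 40.5 TPM, and in 14 cKO cells (20.3%, interval 11.6 to 31.7) at 22.6 to 1278 TPM. The difference was 1.62 (1.71 in batch 1, 1.51 in batch 2) and 1.52 among CM-like cells. All 14 cKO cells with Mir298 also had Mir296, whereas the control cells with each row were different cells. These neighbouring rows may share fragments, so their detections may not be independent. Nespas was detected in 14 control and 29 cKO cells, with a difference of 1.02 (0.89 among CM-like cells), and was present in 15 of the 24 Mir296-positive cKO cells. Gnas, the gene of the stimulatory G protein alpha subunit transcribed from the opposite strand, was higher by 1.12 both over all cells and among CM-like cells. No control cell outside the CM-like class had Mir296 or Mir298.

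The muscle microRNAs were seen in few cells. miR-1 and miR-133a are made from shared primary transcripts in heart and skeletal muscle and act in muscle growth and differentiation. Mir133a-2, on chromosome 2 (GRCm38, from 2:180398379 to 2:180398482), was detected in 3 control cells at 11.1 to 26.3 TPM and in 10 cKO cells at 16.1 to 3938 TPM. No control cell with it was CM-like (0 of 28, which allows a share of up to 10.7%), against 10 of 68 cKO CM-like cells (14.7%). The difference was 1.08 over all cells, 0.93 in batch 1, 1.23 in batch 2 and 1.27 among CM-like cells. Mir133a-1, on chromosome 18, was detected in 3 control and 10 cKO cells, with a difference of 0.83 that was 0.86 and 0.74 by batch and 0.59 among CM-like cells. Only 1 cell carried both copies. The 2 copies are similar in sequence, although their rows differ in length (68 bases for Mir133a-1, 104 for Mir133a-2). Whether reads were split between the rows was not tested, and single values are uncertain.

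Mir1b lies beside Mir133a-1, on the other strand, in an intron of Mib1, a ubiquitin ligase of Notch signalling, and overlaps the antisense hairpin of Mir1a-2. It was detected in 1 control cell at 30.8 TPM and in 11 cKO cells at 13.8 to 1442 TPM, all 11 of them CM-like. It differed by 1.19 over all cells, by 0.81 within batch 1, by 1.59 within batch 2 and by 1.28 among CM-like cells. Mib1 itself differed by 0.01 (0.61 among CM-like cells), and Mir133a-1 and Mir1b shared 4 cKO cells. The counting strand is not given in the sources used here, so reads of Mir1b and of its antisense partner cannot be told apart. Mir1a-1, the partner of Mir133a-2, was at 0 in every cell.

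Mir376b lies on chromosome 12 (GRCm38, from 12:109723458 to 12:109723539) in the imprinted Dlk1-Dio3 region, whose long noncoding RNAs Meg3, Rian and Mirg are made from the maternal allele and carry many microRNA hairpins. It was detected in 2 control cells at 15.8 and 37.3 TPM and in 10 cKO cells (14.5%, interval 7.17 to 25) at 95.8 to 470 TPM. The cKO values all lay above the control values. The difference was 1.01, with 1.53 in batch 1, where 8 cKO cells had it, and 0.46 in batch 2, where 2 had it. Among CM-like cells it was also 1.01. Gm25252, annotated beside Mir376b on the other strand, was detected in 11 of the 12 Mir376b-positive cells, so the 2 rows may share reads. Mirg was higher by 2.10 (28 control and 39 cKO cells), 2.56 among CM-like cells, and was present in 10 of the 12 Mir376b-positive cells. Meg3 was higher by 1.43 (2.43 among CM-like cells), while Rian differed by −0.77 (−0.43 among CM-like cells), with opposite signs in the batches (0.62 and −2.16). Other microRNA rows of the region stayed outside the threshold, with Mir300 and Mir369 in 5 cKO cells each and Mir541 in 1 cKO cell, and none in control cells.

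**Figure D4:**
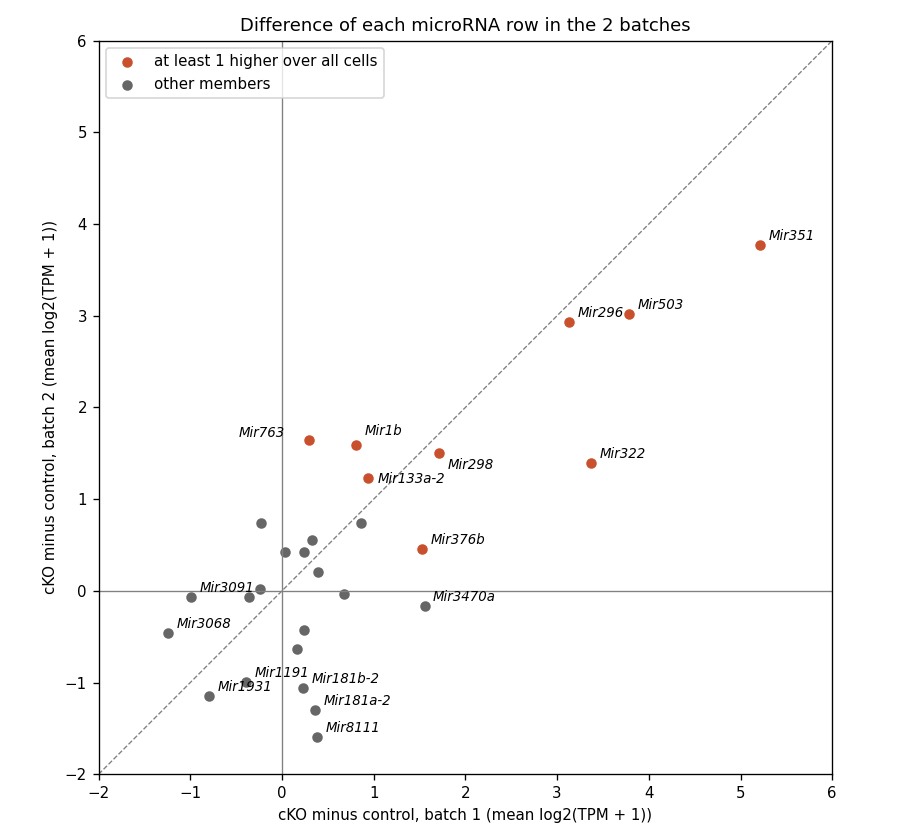
Difference of the mean log2(TPM + 1), cKO minus control, of each microRNA row in batch 1 (x axis) and batch 2 (y axis). The dashed line marks equal values, and Mir351 (5.22 and 3.77), Mir503, Mir296, Mir322 and Mir298 lay above 1 in both batches.

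Of the 28 members, 13 lay wholly within a gene on the same strand, 3 lay wholly opposite a gene only, and 12 lay outside annotated genes. Partial overlaps were not counted. For the hosted rows a read may belong to the unspliced host transcript. Since the counting strand is not given, reads on the 3 rows opposite a gene may likewise belong to that gene. Mir763, in an intron of Hmga2, a chromatin protein of embryonic cells, was detected in 11 control cells at 9.64 to 629 TPM and in 17 cKO cells at 7.96 to 2273 TPM. Its difference was 1.00, but 0.29 in batch 1 and 1.65 in batch 2, and 0.60 among CM-like cells. All 28 cells with Mir763 had Hmga2, which was detected in 138 cells and differed by 0.13 (0.08 among CM-like cells). Mir7-1, in an intron of Hnrnpk, an RNA-binding protein, was detected in 8 control and 9 cKO cells and differed by 0.32 (0.93 among CM-like cells), while Hnrnpk differed by −0.34 (−0.26). Mir3473f, in an intron of the survival gene Bcl2, was detected in 26 control and 22 cKO cells and differed by −0.14 (0.24 and −0.42 by batch), while Bcl2 was higher by 0.91. Among CM-like cells Mir3473f differed by −0.06, with opposite signs by batch (0.52 in batch 1, −1.75 in batch 2). Bcl2 differed by 0.05 among CM-like cells (0.34 and −0.07 by batch).

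Other intronic members had differences below 1 unit. Mir5098, in an intron of the transcriptional repressor Rest, was detected in 11 cells of each genotype and differed by 0.23 over all cells and by −0.17 among CM-like cells. Mir466q, in an intron of the kinase gene Tnik, was detected in 5 control and 11 cKO cells and differed by 0.34 (0.33 among CM-like cells). Mir5125, in an intron of Srrm2, a splicing factor, was detected in 10 control and 6 cKO cells and differed by −0.26 (−0.29 among CM-like cells), with opposite signs by batch. Mir5128, in an intron of Strbp, was detected in 7 control and 5 cKO cells and differed by −0.08 (−0.46 among CM-like cells).

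Mir181a-2 and Mir181b-2 lie on the plus strand of chromosome 2 (GRCm38, from 2:38852735 to 2:38853918), opposite an intron of Nr6a1, an orphan nuclear receptor. miR-181 is best known from lymphocyte development. Mir181b-2 was detected in 11 control and 5 cKO cells, and Mir181a-2 in 9 control and 4 cKO cells. The rows shared 8 control and 2 cKO cells. Their differences were −0.46 and −0.50, but positive in batch 1 (0.23 and 0.36) and negative in batch 2 (−1.06 and −1.30). Among CM-like cells they were 0.01 and −0.50. No direction held across batches. In control cells, 10 of the 11 cells with Mir181b-2 were from batch 2. The antisense row Nr6a1os, on the strand of the pair, was present in 13 of 16 cells with Mir181b-2, and Nr6a1 was higher by 1.55 in cKO cells (1.95 among CM-like cells).

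5 members were lower in cKO cells in both batches, a count without a background over all rows. Mir1931, in an intron of the cyclin-dependent kinase gene Cdk17, was detected in 12 control cells (16.2%, interval 8.67 to 26.6), 6 in each batch, at 11.6 to 225 TPM. It was detected in 1 cKO cell, at 99.1 TPM. The difference was −0.97 (−0.80 and −1.15 by batch), and −0.57 among CM-like cells, where the value was close to 0 in batch 1. Of the 12 control cells, 7 were endothelial-like and 3 CM-like. Cdk17 was detected in 28 control and 26 cKO cells and differed by −0.27 over all cells and 0.41 among CM-like cells.

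Mir3068, in an intron of Alkbh1, a nucleic acid demethylase, was detected in 12 control cells at 9.59 to 1843 TPM and in 2 cKO cells (2.90%, interval 0.353 to 10.1). The difference was −0.84 (−1.24 and −0.45) and −1.20 among CM-like cells. Alkbh1 differed by −0.91 (−1.33 among CM-like cells) and was present in 11 of the 12 control cells with Mir3068 and in none of the 2 cKO cells. The annotation lists a small nucleolar RNA under the same symbol and place, so the row may combine both. Mir3091, in an intron of the ribosomal protein gene Rps21, was detected in 13 control and 6 cKO cells, with a difference of −0.50 (−0.54 among CM-like cells), and Rps21 differed by −0.71 (−0.75). Mir1191, within an untranslated exon of BC024978, was detected in 11 control and 4 cKO cells and differed by −0.72 over all cells, but by 0.07 among CM-like cells. Mir8112, opposite an intron of the muscle methyltransferase gene Smyd1, was detected in 18 control and 14 cKO cells and differed by −0.16 over all cells and −0.98 among CM-like cells.

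Mir6236, on chromosome 9 outside annotated genes, was the most widely seen member. It was detected in 63 control cells (85.1%, interval 75 to 92.3) at 9.24 to 3567 TPM and in 61 cKO cells (88.4%, interval 78.4 to 94.9) at 8.68 to 12165 TPM, with medians of 121 and 134. The mean of 6.11 ± 3.08 in control and 6.40 ± 3.00 in cKO cells differed by 0.29, with opposite signs in the batches (−0.22 and 0.74), and by −0.12 among CM-like cells. Across the 74 control cells, the rows most like it by Spearman's rho were Gm15662 (0.58) and Lars2 (0.52), a mitochondrial leucyl-tRNA synthetase gene. For Mir8112 the closest row was Krcc1 (0.58), which it overlaps in part, so the rows may share reads. Krcc1 differed by 0.41 over all cells and by −0.92 among CM-like cells.

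The remaining members outside genes had no difference of 1 unit over all cells. Mir8111 was detected in 20 control and 13 cKO cells and differed by −0.64, with 0.38 in batch 1, −1.60 in batch 2 and −0.37 among CM-like cells. Mir6240 was detected in 12 control and 18 cKO cells and differed by 0.33 over all cells, but by −0.14 among CM-like cells, where 7 of 28 control and 17 of 68 cKO cells had it. Mir1946b was detected in 4 control and 10 cKO cells and differed by 0.45 (0.57 among CM-like cells), and its mature form shared its seed with miR-8111. Mir3470a was detected in 7 control and 17 cKO cells and differed by 0.72, with 1.56 in batch 1, −0.17 in batch 2 and 0.36 among CM-like cells. Its sequence is repeat-related and close to that of Mir3470b, so reads may have been split between these rows.

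Within the control heart, several members were unevenly spread over the classes of cells. Mir322 was detected in 15 of 28 CM-like cells (53.6%), 8 of 21 endothelial-like cells (38.1%), 4 of 13 cells with epicardial and mesenchymal markers, 6 of 7 mitochondrial-led cells and 0 of 5 erythroid-like cells, a count of 0 that allows a share of up to 60%. Mir351 was about as frequent in endothelial-like (5 of 21) as in CM-like control cells (5 of 28). Mir7-1 was detected in 5 of 13 cells with epicardial and mesenchymal markers and in 1 of 28 CM-like cells. Mir1931 (7 of 21), Mir181b-2 (6 of 21) and Mir1191 (5 of 21) were each seen in a larger share of endothelial-like than of CM-like cells (3, 3 and 1 of 28). The classes were unequally spread over the batches, with 14 of 21 endothelial-like but 9 of 28 CM-like cells from batch 2. Within batch 2, Mir181b-2 was in 5 of 14 endothelial-like and 3 of 9 CM-like cells, so its contrast nearly vanished. Mir1931 was in 4 of 7 and 1 of 19 cells in batch 1, and in 3 of 14 and 2 of 9 in batch 2. Mir1191 was in 2 of 7 and 0 of 19 cells in batch 1, and in 3 of 14 and 1 of 9 in batch 2. Mir8112 went the other way, with 11 of 28 CM-like and 3 of 21 endothelial-like cells (9 of 19 and 2 of 7 in batch 1, 2 of 9 and 1 of 14 in batch 2). These counts were small and were not compared by a test.

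**Figure D5:**
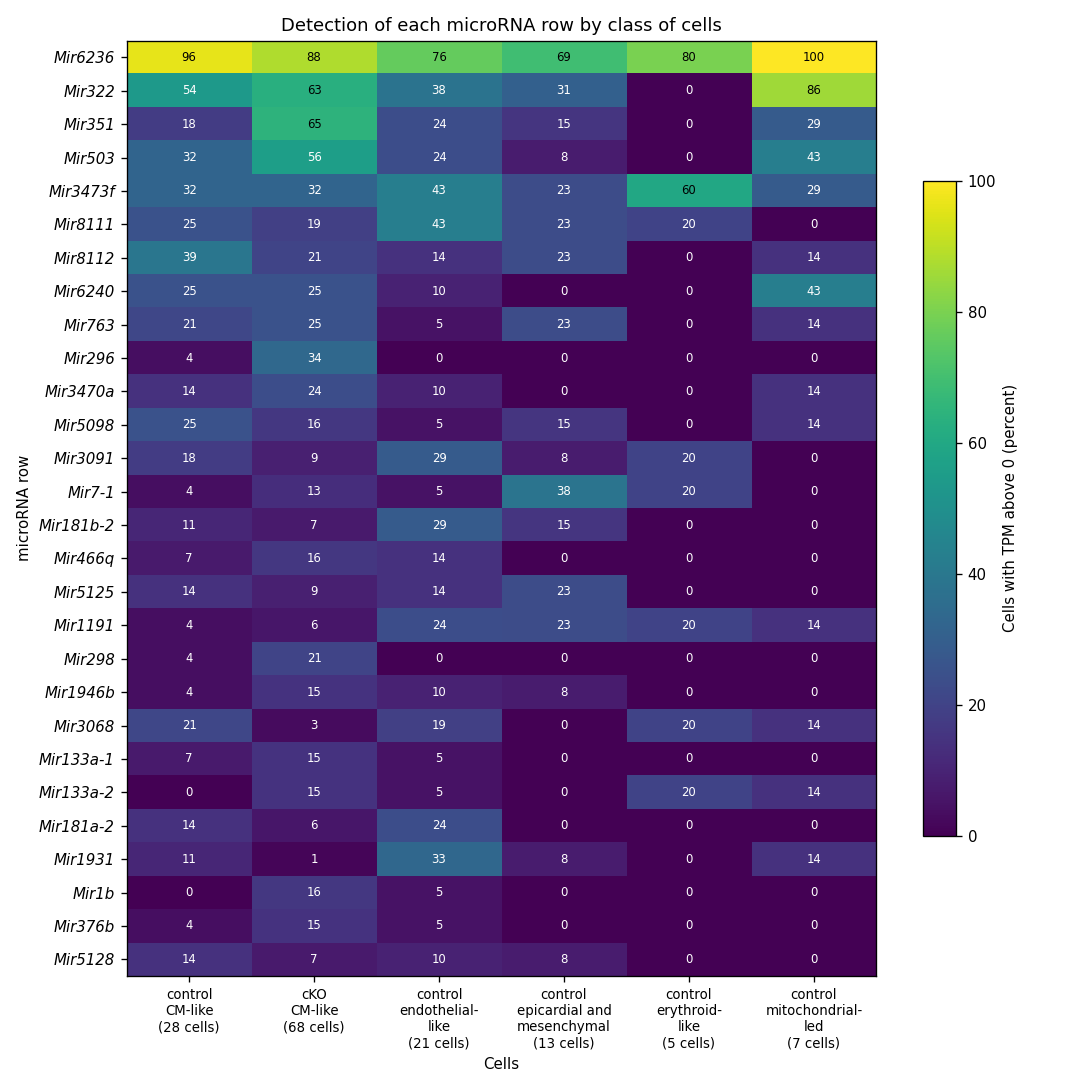
Percentage of cells with TPM above 0 for each microRNA row (y axis), by class of control cells and for cKO CM-like cells (x axis), as colour and rounded number. Mir296 was detected in 33.8% of cKO CM-like cells and 3.57% of control CM-like cells, and in no other class of control cells.

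The number of members detected in a cell had a median of 5 in control cells (range 1 to 16) and 6 in cKO cells (range 1 to 13). In batch 1 the medians were 5 and 8, and in batch 2 they were 4 and 5. Cells with more detected genes had more members, with Pearson's r of 0.47 across 74 control and 0.57 across 69 cKO cells. These values describe cells, which are not replicates. The median number of detected genes was 9270 in control and 9751 in cKO cells of batch 1, and 8694 and 7765 in batch 2. Among CM-like cells of batch 2 the order turned, with medians of 6 members in 9 control and 5 in 34 cKO cells, and of 9826 and 7765 detected genes. The part of detected genes in the number of members was not tested. The members' median share of a cell's TPM was 0.0604% in control and 0.274% in cKO cells.

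When detected, the members stood high. The lowest value above 0 of any member was 3.04 TPM, and the median over members of the median TPM when detected was 138, against 8.97 for all rows detected in more than 10 cells. The members are 68 to 137 bases long, and a fragment on so short a row is worth more TPM than on a long one. The read length given in the paper exceeds that of every member, so a read on a member may run into its flanks. A single fragment may also reach neighbouring hairpins, such as Mir322 and Mir503, whose 5' ends lie 295 bases apart. How far shared detection of neighbouring rows came from shared fragments was not tested. Values of single cells therefore say more about presence than about level.

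The threshold of more than 10 cells left several rows just outside. Mir376b, Mir1b and Mir5128 were just inside, with 12 cells each. Just outside, with 10 cells each, were Mir335 (0 control, 10 cKO), Mir3470b (3 and 7) and Mir7669 (6 and 4). Mir335 ranged from 60.6 to 618 TPM in its 10 cKO cells. From a list of 30 cardiovascular microRNA names, 24 had a row, 17 of these were at 0 in every cell, and Mir133a-1 and Mir133a-2 alone were members. Mir208a, Mir499, Mir126a and Mir21a were among those at 0. For Mir17 and the neighbouring Mir18, Mir19a, Mir19b-1 and Mir20a, all at 0, the host transcript Mir17hg was detected in 55 control and 62 cKO cells and was higher by 3.04 in cKO cells (3.48 among CM-like cells). Rows at 0 and a host transcript detected in most cells thus occurred side by side.

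The genes that make and use microRNAs were compared as a list of 22, all of them detected in more than 10 cells. Over all cells 2 were at least 1 unit higher in cKO cells, Tnrc6b (1.12), a partner of Argonaute in silencing, and Ddx17 (1.06), a helicase of the microprocessor. This share was not far from the 6.02% of all rows, and among CM-like cells the values were 0.90 and 0.28. None was at least 1 unit lower, and the median was −0.05. Among CM-like cells none was at least 1 unit higher, and Tarbp2, the partner of Dicer, and Ran, which drives the nuclear export of hairpins, differed by −2.04 and −1.24, against 6.35% of all rows at least 1 unit lower. Drosha differed by −0.24 and Dicer1 by 0.37 over all cells.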

How the data were processed

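TPM values of 143 single cells were taken as deposited. Per the study's methods, the authors mapped Smart-seq2 reads to mm10 with Salmon (version, annotation release and strand setting not given in the sources used here), with both reporter sequences added, kept cells of high mapping rate and removed cells of contradictory reporter expression. Of 170 labelled samples, 27 had no column and were not analysed here. All 143 cells were kept, and doublets were not called because cells were picked by hand.

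A row was detected at TPM above 0. A difference is the mean log2(TPM + 1) over cKO cells minus that over control cells. The pseudocount of 1 understates changes of low rows. A difference of at least 1 was counted. With 1 sample a genotype no test was run. The calculation was tested on simulated data, with a smaller spread than measured and shifts placed only in rows of higher mean. That check did not cover sparse rows such as most members. Cells were divided into 5 clusters by Ward linkage on z-scored log2(TPM + 1) of 55 markers. A cluster was named from 3 or more markers. Positions are from GENCODE (GRCm38), and members within 10 kb form a cluster. Named rows are the 10 in most cells, the 10 of largest difference with 1 sign in both batches, clustered rows, a cardiovascular list and rows at the threshold. Further members were named after their values were seen. Members and lists were chosen with earlier results of these data known. Alternatives were pseudocounts of 0.1 and 10, the ratio of means, single batches, CM-like cells, other filters, 4 and 6 clusters and 50 kb. Python 3.11.15, numpy 2.4.6, pandas 2.3.3 and scipy 1.17.1 were used.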

Additional observations from a re-analysis of the deposited data

Results flagged for a closer look

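Among 217 rows annotated as microRNA genes but not named Mir and a digit, 10 were at least 1 log2 unit higher in cKO cells and above 0 in difference in both batches. This is 4.61%, below the 6.02% of all rows, and 6 of the 217 were at least 1 unit lower. They are not members and are given as cells with TPM above 0 in cKO and control cells. Mirlet7a-1, a let-7 gene on chromosome 13, was detected in 17 cKO and 2 control cells, and Gm24111, close by on the other strand, in 19 and 1. Of the other let-7 rows of the table, Mirlet7c-1 was seen in 1 cell and the rest in none. Gm25252, beside Mir376b on the other strand, was detected in 11 cKO and 1 control cells and shared 11 cells with Mir376b. Gm22907 was detected in 40 and 13 cells, Gm22411 in 21 and 8, Gm22420 in 26 and 14, and Gm25195 in 31 and 16. Gm25197 was detected in 40 and 31 cells, Gm24979 in 46 and 40, and Gm27743 in 40 and 30.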

How the results depend on the processing

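No paired analysis was possible because the replicate numbers in the labels name single cells and no test was run. The 9 members at least 1 unit higher kept their direction in all 9 alternatives run for each. Some of these alternatives were chosen after seeing the data. These members had been picked for a large difference, which favours a kept direction. CM-like cells split by batch were not among the alternatives, and there the difference of Mir322 was −0.65 in batch 2. Of the 28 members, 14 had another direction in some alternative. The median difference of 0.33 was 0.51 with a pseudocount of 0.1, 0.17 with 10, 0.20 among CM-like cells, 0.74 on the ratio of mean TPM, 0.033 over all 283 microRNA rows seen in any cell and 0.53 for the 12 seen in more than 20 cells. The count of members at least 1 unit higher fell from 9 to 4 with a pseudocount of 10 and to 5 for rows in more than 20 cells, of which fewer exist. The count at least 1 unit lower, 0, became 3 with a pseudocount of 0.1, 1 among CM-like cells, 1 in batch 1, 4 in batch 2 and 6 on the ratio of means. The difference of the medians of members per cell was 1, and 3 in batch 1. Chosen after seeing the data, leaving out the mitochondrial-led cells gave a median of 0.36, leaving out the cell of highest Mir322 and Mir503 gave 0.28, and the ratio of means without that cell gave 0.76 and 6 lower members. The cause of these shifts was not tested. The number of clusters of cells and the 50 kb distance moved no count by over 1.5 times.

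Unknown depth limits every statement on absence, and 1 sample per genotype leaves differences between embryos unmeasured.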
